A study of Mus musculus with 10 samples.

Results

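The m6A peaks of 10 genes that act as negative feedback on ERK signalling or as its ETS transcription factors are described here, in neural progenitor cells from the mouse hypothalamus. The genes are Spry1, Spry2, Spry4, Spred1, Spred2, Dusp4, Dusp6, Il17rd, Etv1 and Etv5. They were chosen by name, and a peak belonged to a gene if it overlapped the gene's RefSeq span on GRCm38.p6 by at least 50% of the shorter of both, on the strand with more reads in the m6A immunoprecipitation (IP). By this rule all 10 genes held a peak, with 21 of the 21195 peaks of the table. Over all RefSeq protein-coding genes, the same rule gave a peak to 9674 of 21900, or 44.2%.

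The labels list 4 IP libraries of Mettl14 knockout cells and 4 of control cells, and 1 input library of each genotype. The cells came from hypothalami of E14.5 embryos with a floxed Mettl14 gene (Mettl14f/f), which both groups carry, and grew with 20 ng/ml each of FGF2 and EGF. Lentivirus with EGFP-Cre, the recombinase that deletes the floxed part, made the knockout, and lentivirus with EGFP alone made the control. EGFP-positive cells were sorted after 72 hours, and their RNA was cut into pieces of about 80 nt. The sources used here do not give the promoter of the virus or say whether cells of several embryos were pooled. The protein Mettl14 belongs to the methyltransferase that places m6A on RNA. The peak table has 1 IP and 1 input column with no genotype or library, so both genotypes could not be set against each other, no value has a replicate error, and no p-value of its own is given. Fewer cells with a transcript and less of it per cell cannot be told apart in such pooled reads.

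The table summed to 72308582 IP and 26633390 input reads over all peaks, with a median of 864 IP and 466 input reads per peak. The peaks of the 10 genes were deeper, with a median of 2326 IP and 1393 input reads. All 21 passed an adjusted p of 0.05 by the authors' deposited table, as did 21187 of all 21195 peaks (100.0%), and the largest adjusted p of the 21 was 0.000132 there, so passing sets these genes apart from nothing. Of the fixed marker lists, neural progenitor genes held a peak in 6 of 10, neuronal genes in 3 of 7, astrocyte and tanycyte genes in 2 of 5, oligodendrocyte lineage genes in 4 of 6, and microglial, blood and vessel genes in 1 of 9. Nes, Sox2, Pax6, Hes1, Notch1 and Slc1a3 were the progenitor genes with a peak, and Vim, Hes5, Fabp7 and Prom1 had none. A gene without a peak can be expressed, so these counts do not measure cell types.

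In this pathway, receptors for FGF and EGF act through Ras to a kinase cascade that ends in ERK. ERK activity induces genes whose products damp the same pathway, and the Sprouty, Spred, Dusp and Il17rd proteins are such inhibitors acting at successive steps. Etv1 and Etv5 are ETS transcription factors of the PEA3 group, known as readouts of FGF signalling, and the repressor Cic keeps several of these genes low when ERK is inactive. The mark m6A, a methyl group on adenosine in RNA, is often found near stop codons and in 3' untranslated regions, and is known to influence how long a transcript lasts.

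Enrichment differed widely among the 10 genes. Each gene is summarised by its strongest peak, the one with the highest log2 fold change of IP over input by the authors' deposited table. In that order the genes ran Dusp6 at 5.31, Etv1 at 4.95, Il17rd at 4.35, Spry4 at 3.97, Spry1 at 3.80, Spred2 at 3.79, Dusp4 at 3.31, Spred1 at 2.85, Etv5 at 2.51 and Spry2 at 1.99, all by the authors' deposited table. The median was 3.79, against 3.51 for all genes with a peak by the authors' deposited table, and 6 of the 10 genes lay above this median of all genes. A value over 4 was found for 3 of the 10 genes and for 30.6% of all genes with a peak. By these values the group was thus close to the rest of the peak table, and the spread lay within the group. The comparison was not matched for the number of peaks per gene. Genes with 1 peak had a median of 3.12 and those with 3 peaks 3.86, by the authors' deposited table. Of the 10 genes, 3 had exactly 1 peak, against 49.4% of all genes with a peak. Members of the same family stood far apart, Spry1 and Spry4 from Spry2, Spred2 from Spred1 and Etv1 from Etv5.

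**Figure D1:**
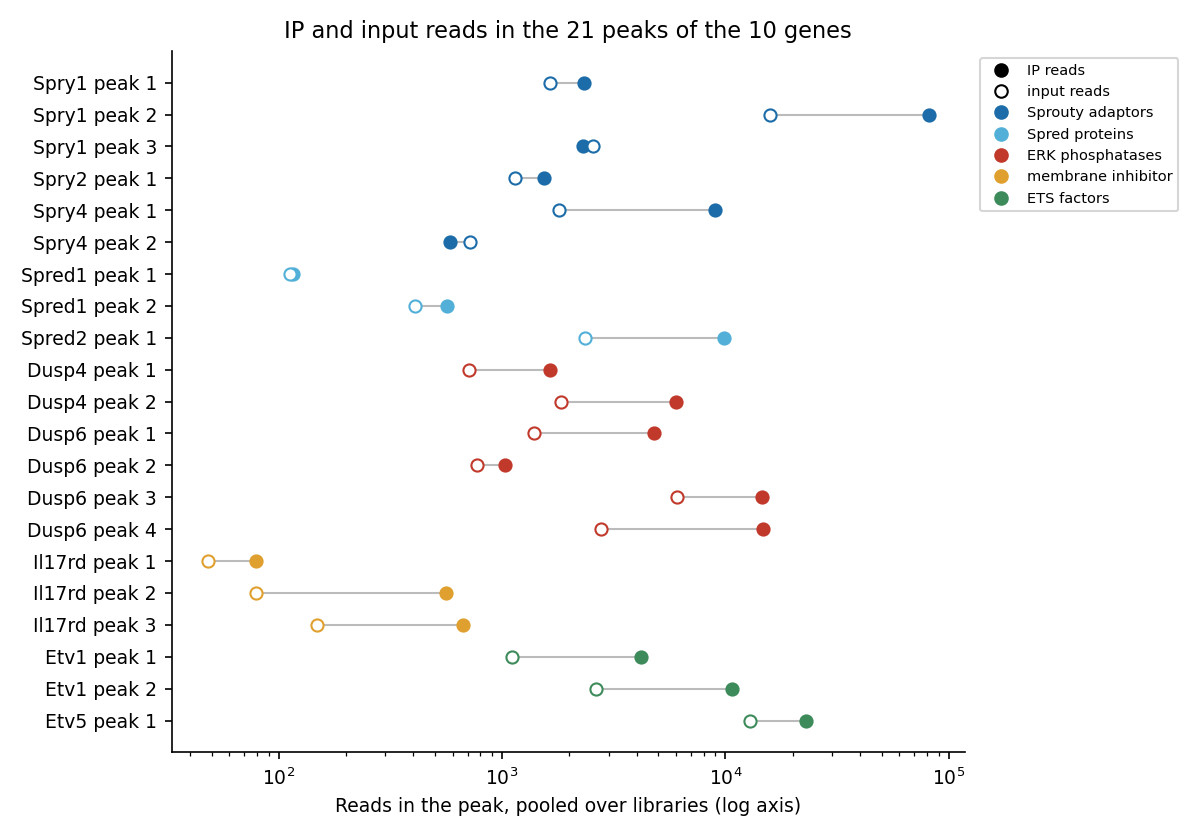
IP reads (filled circles) and input reads (open circles) in each of the 21 peaks, on a log axis. Peaks are numbered from the 5' end of each gene and coloured by family. The axis label says pooled over libraries, although the columns name no library. IP reads exceed input reads in all peaks but Spry1 peak 3 and Spry4 peak 2.

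The plain ratio of IP to input reads gave a partly different order. Library depth is not taken into account in it, so that values under 1 are no sign of depletion, and its 95% interval (exact, Clopper-Pearson) covers counting error only. Il17rd was highest at 7.06 (5.57 to 9.06). Dusp6 at 5.30 (5.09 to 5.52), Spry1 at 5.13 (5.04 to 5.22) and Spry4 at 5.0 (4.75 to 5.26) followed, and neighbours among these 3 had overlapping intervals. Spred2 at 4.18 (3.99 to 4.37) and Etv1 at 4.06 (3.89 to 4.24) also overlapped. Below them stood Dusp4 at 3.26 (3.09 to 3.43) and Etv5 at 1.79 (1.75 to 1.83). Spred1 at 1.39 (1.22 to 1.58) and Spry2 at 1.34 (1.24 to 1.45) were lowest and overlapped. Of the 9 neighbouring pairs in this order, 4 had overlapping intervals. The median ratio of the 10 strongest peaks was 4.12, against 3.10 over all genes with a peak (with 0.5 added to each read count).

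**Figure D2:**
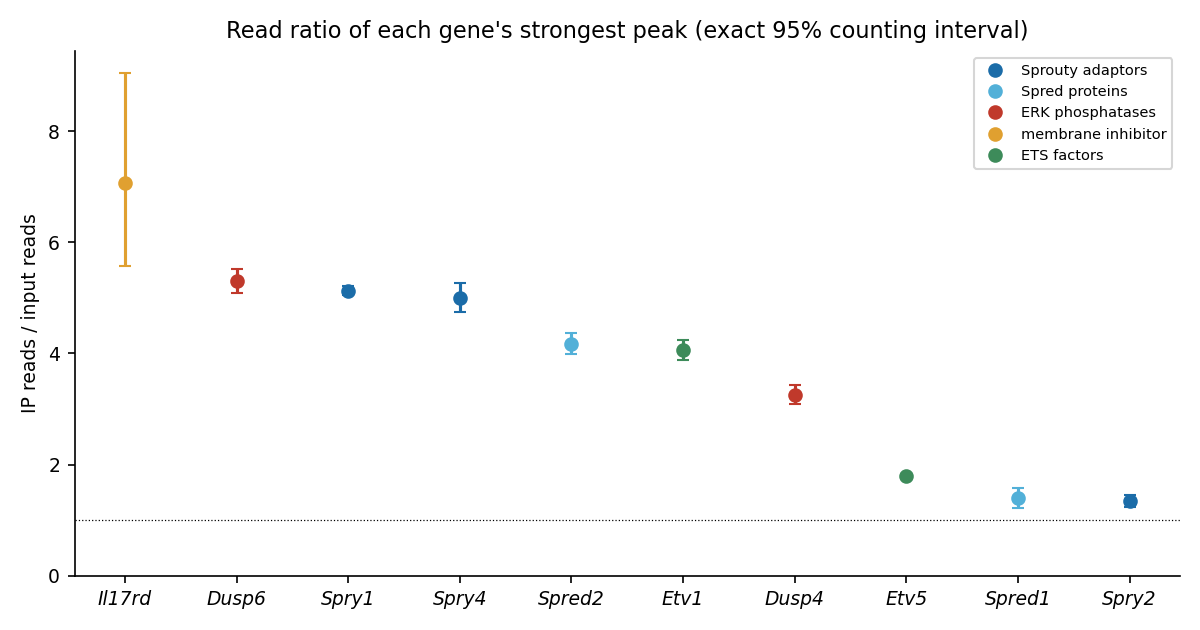
Ratio of IP to input reads in the strongest peak of each gene, with exact 95% intervals that cover counting error only. Il17rd, with the fewest reads, has the widest interval, and Etv5, Spred1 and Spry2 form the low end.

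For the Sprouty proteins, inducible inhibitors of receptor tyrosine kinase signalling upstream of ERK, enrichment was higher in Spry1 and Spry4 than in Spry2. By log2 fold change (the authors' deposited table), the strongest Spry1 peak exceeded that of 46.7% of the 1241 genes with 3 peaks. The strongest Spry4 peak exceeded that of 65.4% of the 2603 genes with 2 peaks. Spry1 (chromosome 3, plus strand, span 37639947 to 37644599) had 3 peaks. Its middle peak (37640747 to 37644017) held 81457 IP and 15877 input reads, the most of any of the 21, and a log2 fold change of 3.80 by the authors' deposited table. That peak held 94.6% of the IP reads in the peaks of Spry1, and Spry1 held 45.4% of the IP reads of all 10 genes. The peaks on either side were weak. The 5' one (75 bases, 650 bases into the gene) had 2326 IP and 1643 input reads, a ratio of 1.42 (1.33 to 1.51). The 3' one, which ended 7 bases before the annotated end of the gene, had 2295 IP and 2556 input reads, a ratio of 0.898 (0.848 to 0.950). Their log2 fold changes by the authors' deposited table were 1.86 and 2.75, so the peak with the lower ratio had the higher fold change there.

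Spry2 (chromosome 14, minus strand, 105891947 to 105896819) had a single weak peak. It began at the annotated first base of the gene and spanned 4323 of its 4873 bases, introns included, with 1536 IP and 1147 input reads. Its log2 fold change of 1.99 by the authors' deposited table was above that of 12.0% of the genes with exactly 1 peak. Spry4 (chromosome 18, minus strand, 38586247 to 38601347) had 2 neighbouring peaks of unequal strength, the first ending 10726 and the second beginning 10926 bases from the start. The first, only 75 bases long (38590622 to 38590696), held 8939 IP and 1789 input reads and a log2 fold change of 3.97 by the authors' deposited table. The second (1650 bases, 38588772 to 38590421) held 587 IP and 721 input reads and the lowest log2 fold change of the 21 peaks, 1.05 by the authors' deposited table. The intervals of their ratios, 4.75 to 5.26 for the first and 0.729 to 0.909 for the second, did not overlap.

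The Spred proteins, which restrain Ras by bringing the GTPase activator neurofibromin to the membrane, were enriched more in Spred2 than in Spred1. Spred1 (chromosome 2, plus strand, 117121071 to 117182279) had 2 thinly covered peaks. The larger (5795 bases, 117172751 to 117178545) held 569 IP and 409 input reads, and the smaller (125 bases) held 116 IP and 112 input reads. Their log2 fold changes were 2.85 and 2.16 by the authors' deposited table, and the intervals of their ratios overlapped. The value of 2.85 exceeded the strongest peak of 20.6% of the 2603 genes with 2 peaks. Spred2 (chromosome 11, plus strand, 19924442 to 20024026) had 1 peak, at 20018107 to 20021532, with 9823 IP and 2351 input reads. Its log2 fold change of 3.79 by the authors' deposited table exceeded that of 73.1% of the 4779 genes with exactly 1 peak. The read ratio of Spred2, 4.18, lay outside the interval of Spred1, 1.22 to 1.58. The related Spred3, fixed in the list of other negative regulators, had 3.43 by the authors' deposited table, on 2766 IP and 708 input reads.

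Among the phosphatases, Dusp6, the cytoplasmic phosphatase specific for ERK, had the most peaks and the strongest, a rank that rests on peaks shared with an antisense gene. It lies on chromosome 10 (plus strand, 99263231 to 99267489), and its 4 peaks covered 74.0% of the 4259 bases of its span. Only 10.9% of the genes with a peak had 4 or more. Read from the 5' end, the peaks held 4791, 1025, 14503 and 14713 IP reads, against 1393, 772, 6077 and 2777 input reads. By the authors' deposited table, the log2 fold changes were 3.15, 2.05, 3.29 and 5.31 in the same order. The last peak, only 125 bases long (99267358 to 99267482) and ending 7 bases before the annotated end, exceeded 98.1% of all genes' strongest peaks and 94.6% of the 577 genes with 4 peaks. The second peak (2152 bases) was the weakest, with a ratio of 1.33 (1.21 to 1.46), against 3.44 (3.24 to 3.65) for the first.

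The 3' end of Dusp6 is shared with another gene. Gm34921, a long noncoding RNA gene on the minus strand (chromosome 10, 99266864 to 99270899), covers the whole of the last peak and 44 bases of the third. The table puts both peaks on the plus strand and gives all 4 peaks the same gene identifier, and the sources used here do not say whether the libraries kept the strand of the RNA. Without both peaks the strongest Dusp6 peak would be the first, at 3.15 by the authors' deposited table, and Dusp6 would no longer lead: it would stand below Dusp4, at 3.31.

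The first Dusp6 peak began at the annotated first base of the gene, as did the Spry2 peak, whereas 0.904% of all gene and peak assignments begin there. The bases around these starts are shown because the peaks begin there and because both promoters hold a match to the Cic octamer, the sequence that the repressor Cic is known to bind. Capitals mark the matches, which read as TCCATTGA and TTCATTGA on the gene's strand. The sequences are from RefSeq on GRCm38.p6, with Dusp6 running from 100 bases before the start to 20 bases after it (chr10:99263131-99263250, plus strand) and Spry2 covering the 100 bases before the start (chr14:105896820-105896919, minus strand):
Dusp6: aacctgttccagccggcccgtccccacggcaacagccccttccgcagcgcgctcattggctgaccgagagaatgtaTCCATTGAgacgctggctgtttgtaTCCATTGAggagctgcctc
Spry2: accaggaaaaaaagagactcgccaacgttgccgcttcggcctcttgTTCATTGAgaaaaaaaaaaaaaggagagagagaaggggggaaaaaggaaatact

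The octamer was searched as TGAATGAA, TGAATGGA, TCAATGAA and TCAATGGA on both strands, in RefSeq windows from 250 bases before to 50 bases after a start. Of the 10 genes, 8 had a window, and with second starts for Etv1 and Etv5 there were 10 windows. Matches were found in 2 of these, against 3.84% of all 32851 windows. Dusp6 held 2 matches, at bases -24 to -17 and 2 to 9 counted from the start. Among all windows 0.183% held 2 or more, a description only, since the Dusp6 window was singled out for its count. The single match of Spry2 was at bases -54 to -47. A match is a string of letters and shows no binding.

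Dusp4, a nuclear phosphatase of MAP kinases, had a peak near each end (chromosome 8, plus strand, 34807610 to 34819894). The 3' peak (675 bases, 34818630 to 34819304) held 5983 IP and 1837 input reads, a ratio of 3.26 (3.09 to 3.43). The 5' peak (75 bases, 34807772 to 34807846) held 1639 IP and 713 input reads, a ratio of 2.30 (2.10 to 2.51). By the authors' deposited table, the log2 fold changes were 3.31 for the 3' peak and 1.75 for the 5' peak. The value of 3.31 exceeded the strongest peak of 36.7% of the 2603 genes with 2 peaks. The intervals of both ratios did not overlap, so the 3' peak was the higher by either measure.

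Il17rd, also called Sef, is a membrane protein that inhibits FGF signalling. It stood out among the 10 genes by high enrichment on few reads (chromosome 14, plus strand, 27038964 to 27107286). Its 3 peaks lay close together in the distal part of a 68323-base span. In 5' to 3' order they held 79, 558 and 670 IP reads, against 48, 79 and 149 input reads. The middle peak (27099777 to 27100476) had the highest ratio of the 21, above that of 97.3% of all peaks. Its log2 fold change of 4.35 by the authors' deposited table exceeded the strongest peak of 75.4% of the 1241 genes with 3 peaks. The first peak was the least certain of the 3, with a ratio of 1.65 (1.1 to 2.4). Of the other receptors of this family, Il17ra had a peak, at 2.85 by the authors' deposited table, and Il17rb, Il17rc and Il17re had none.

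The ETS factors Etv1 and Etv5 were marked at opposite ends. Etv1 (chromosome 12, plus strand, 38780082 to 38870483) had both its peaks within the first 3400 bases of a 90402-base span and none at its 3' end. The second (38781747 to 38783481) held 10700 IP and 2637 input reads, with a log2 fold change of 4.95 by the authors' deposited table, higher than in 95.2% of the 2603 genes with 2 peaks. The first (175 bases, 38780307 to 38780481) held 4182 IP and 1106 input reads and 3.61 by the authors' deposited table. By read ratio both were close, 4.06 (3.89 to 4.24) for the second and 3.78 (3.54 to 4.04) for the first, with overlapping intervals. RefSeq gives Etv1 a second start downstream of both peaks. Etv5 (chromosome 16, minus strand, 22381313 to 22439570) had 1 peak of 700 bases (22382734 to 22383433), 1421 bases from its 3' end. It held 23060 IP and 12869 input reads, the second highest input of the 21 peaks. Its ratio was 1.79 (1.75 to 1.83) and its log2 fold change of 2.51 by the authors' deposited table exceeded that of 28.4% of the genes with exactly 1 peak. Etv4, the remaining PEA3 factor, had no peak, nor had Etv2, while Etv3 had 2.51 and Etv6 2.97 by the authors' deposited table.

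A further peak with the gene identifier of Etv1 was left out by the overlap rule. It ran from 702 bases before the annotated start to 125 bases past it (38779380 to 38780206), so that 15.1% of it overlapped the gene, while the 21 peaks kept lay wholly inside their genes. It held 288 IP and 375 input reads, a ratio of 0.768 (0.656 to 0.898), and a log2 fold change of 1.13 by the authors' deposited table. It was the only peak with an identifier of the 10 genes outside the rule. The 250 bases before the annotated Etv1 start lie within it. They are shown because they are part of this peak and because they are dense in the letters in which m6A is often found. The reads were counted over the whole peak, so how many fell in these 250 bases is not known. Capitals mark GGAC followed by A, C or T on the plus strand (RefSeq, GRCm38.p6, chr12:38779832-38780081):
Etv1: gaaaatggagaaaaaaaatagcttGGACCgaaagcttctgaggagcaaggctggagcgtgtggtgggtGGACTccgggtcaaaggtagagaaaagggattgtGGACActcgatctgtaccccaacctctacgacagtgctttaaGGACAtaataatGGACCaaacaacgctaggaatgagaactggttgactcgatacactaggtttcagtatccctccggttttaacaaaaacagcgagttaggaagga

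The search covered both strands, for GGAC and likewise for AGAC, when the next letter was A, C or T. On the gene's strand Etv1 held 5 matches before its start, at bases -226, -182, -148, -106 and -94, all of them beginning with GGAC. The other 9 windows of these genes held 0 to 2 such matches before the start. At least 5 were found in 2.96% of all windows, and the median window held 1, which is a description only, since the Etv1 window was picked for its count. On the opposite strand this window held none. In the 50 bases after the start, which the first Dusp6 peak and the Spry2 peak cover, neither gene had a match on its own strand. These windows reach no other peak of the 10 genes except part of the second Etv1 peak, so the letters under most peaks were not analysed here.

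The positions of the peaks along the gene spans are given as counts, with no test. The last 10% of the span held the midpoint of 6 of the 21 peaks (28.6%), against 36.6% of all gene and peak assignments. The first 10% held 4 (19.0%), against 9.28%. The strongest peak lay in the last 10% in 4 of the 10 genes (Spred2, Dusp4, Dusp6 and Etv5), against 40.9% of all genes with a peak, and in the first 10% in Etv1 alone. Spry1, Spry2 and Dusp6 are short genes, of 4653, 4873 and 4259 bases, in which wide peaks cover most of the span and 10% is a short stretch. Introns are part of the spans and of wide peaks, so reads per base of a peak were not compared between genes.

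**Figure D3:**
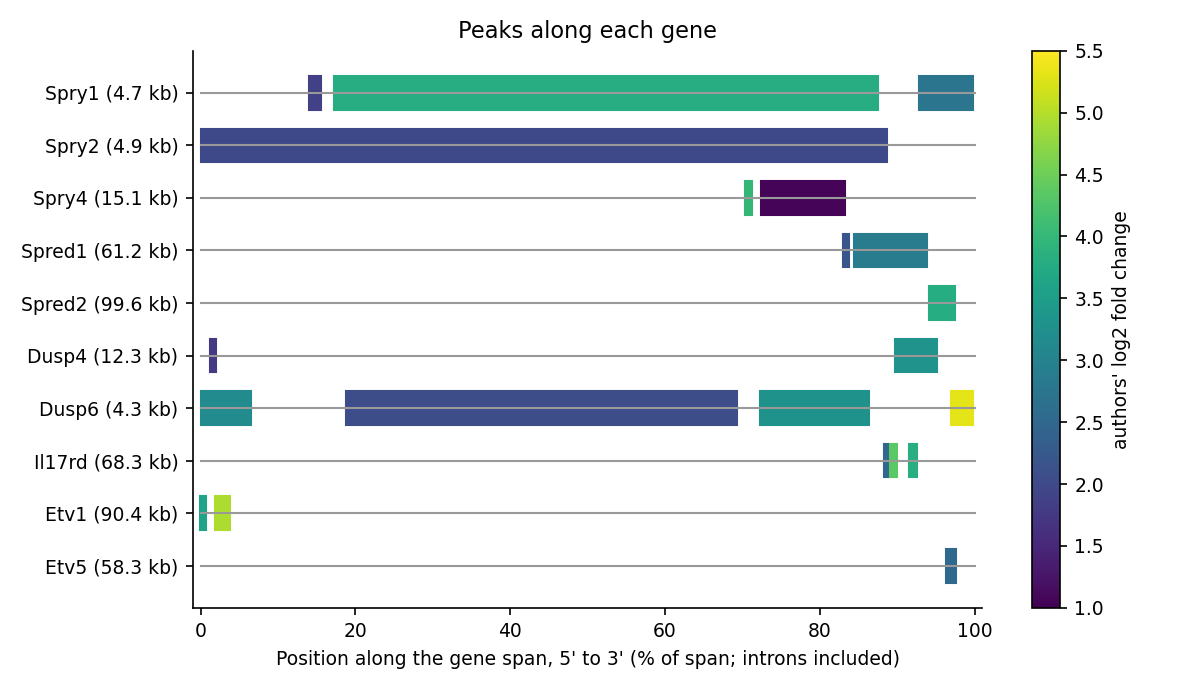
The 21 peaks along each gene's span from 5' to 3', in percent of the span with introns included, coloured by log2 fold change (the authors' deposited table). Very short peaks are drawn at a minimum width of 0.8%. Etv1 is marked at its 5' end, and Etv5, Spred2 and the last peak of Dusp6 lie at the 3' end.

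Dusp6 and Etv1 ranked lower by the plain read ratio than by the fold change. The log2 fold change by the authors' deposited table exceeded the log2 ratio of the reads (0.5 added to each) by a median of 1.88 over all peaks and by 1.65 over the 21. In 3 of the 21 peaks the difference was over 2.9, a limit chosen after the values were seen, namely 2.93 in the second Etv1 peak, 2.91 in the last Spry1 peak and 2.90 in the last Dusp6 peak, and 1.98% of all peaks had such a difference. The next among the 21 was 2.38, and the lowest was 0.55 in the 5' peak of Dusp4. By read ratio the last Dusp6 peak stood above 90.6% of all peaks and the second Etv1 peak above 78.2%, whereas by log2 fold change (the authors' deposited table) they stood above 98.9% and 97.0%. In each of the 7 genes with more than 1 peak, the strongest peak by fold change was also the one with the highest ratio. The order turned in 2 of 16 pairs of peaks of the same gene, between the outer peaks of Spry1 and between the first and the third peaks of Dusp6.

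**Figure D4:**
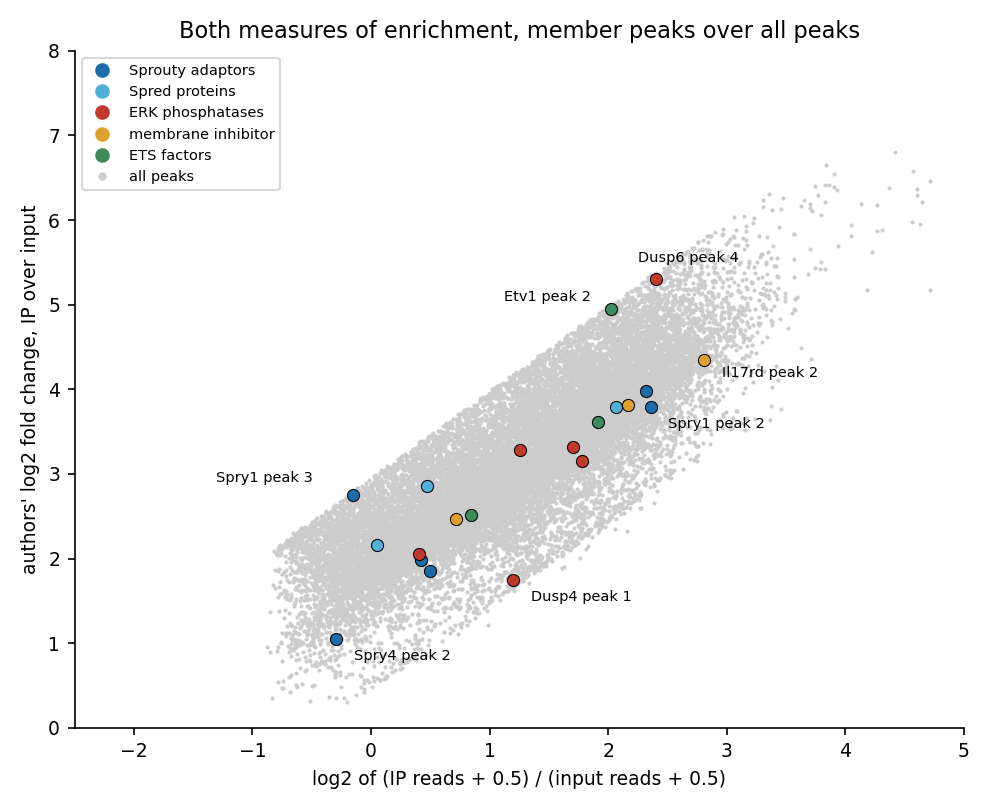
The log2 fold change by the authors' deposited table (vertical) against the log2 ratio of IP to input reads with 0.5 added to each (horizontal), for all peaks in grey and the 21 peaks in colour. The last Dusp6 peak, the second Etv1 peak and the last Spry1 peak lie along the upper edge of the grey band, and the 5' Dusp4 peak near its lower edge.

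Other genes of the pathway held peaks often, in lists fixed with earlier results of these data known. A peak was found in 23 of 26 receptors, ligands and adaptors of FGF and EGF signalling (88.5%) and 12 of 20 genes of the Ras-ERK cascade (60.0%). The other negative regulators held one in 19 of 25 (76.0%) and the other ETS factors in 13 of 16 (81.2%). The list of other transcriptional outputs of ERK held one in 16 of 21 (76.2%), beside the 44.2% of all protein-coding genes by the same rule. This output list also includes the repressor Cic, which is not such an output, and Atxn1 and Atxn1l, and each of these held a peak by the overlap rule. The rule matched neither the strand nor the identifier of a gene. Some listed genes are therefore counted for a peak whose identifier belongs to another gene. In the output list this holds for Atxn1 and Fosl1, which had no other peak. Which genes these cells express was not known, so the background includes silent genes. By the log2 fold changes of the authors' deposited table, the strongest peaks in these lists had medians of 3.38, 3.31, 3.66, 3.68 and 2.90 in the same order, beside 3.79 for the 10 genes and 3.51 for all genes with a peak. The other receptors of the Il17rd family, a further list, held a peak in 1 of 4. Shares of genes with a peak thus lay above 44.2% in every list but this family list of 4 genes. The medians lay on both sides of the 3.51 for all genes, and 84 genes of the 6 lists held a peak.

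By gene, the receptor list was led by the adaptor Grb2, the receptor Erbb4 and the ligand Fgf9, at 4.80, 4.46 and 4.25 by the authors' deposited table. The Erbb4 peak rested on 76 IP and 24 input reads. In the cascade list, Rps6ka3, a kinase that ERK activates, had 3.71 by the authors' deposited table, on 4431 IP and 1570 input reads. Among other negative regulators the values by the authors' deposited table were 5.50 for the Ras GTPase activator Rasal2 (116 IP and 13 input reads), 4.56 for the phosphatase Dusp16 and 4.48 for Lrig3. The other Dusp phosphatases with a peak were Dusp14 at 4.37, Dusp1 at 3.95, Dusp10 at 3.74, Dusp5 at 3.70, Dusp3 at 3.66, Dusp7 at 3.32 and Dusp8 at 3.09 by the authors' deposited table, all below the last Dusp6 peak but, except for Dusp8, above the first one, and Dusp2, Dusp9 and Spry3 had none. Leading the ETS list were Erg (232 IP and 26 input reads), Gabpa and Elf2, at 4.81, 4.52 and 4.50 by the authors' deposited table, below Etv1 and above Etv5. The output list was led by Jun at 4.70 by the authors' deposited table. Fosl1 followed by the overlap rule, at 4.41 by the authors' deposited table. That peak also overlapped Ccdc85b and carries the identifier of Ccdc85b alone, so its value cannot be credited to Fosl1. Next in that list was the repressor Cic, not itself an output, at 4.09 by the authors' deposited table. Cic had 14899 IP and 2136 input reads, a ratio of 6.98 (6.67 to 7.30), above that of 9 of the 10 genes described here.

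**Figure D5:**
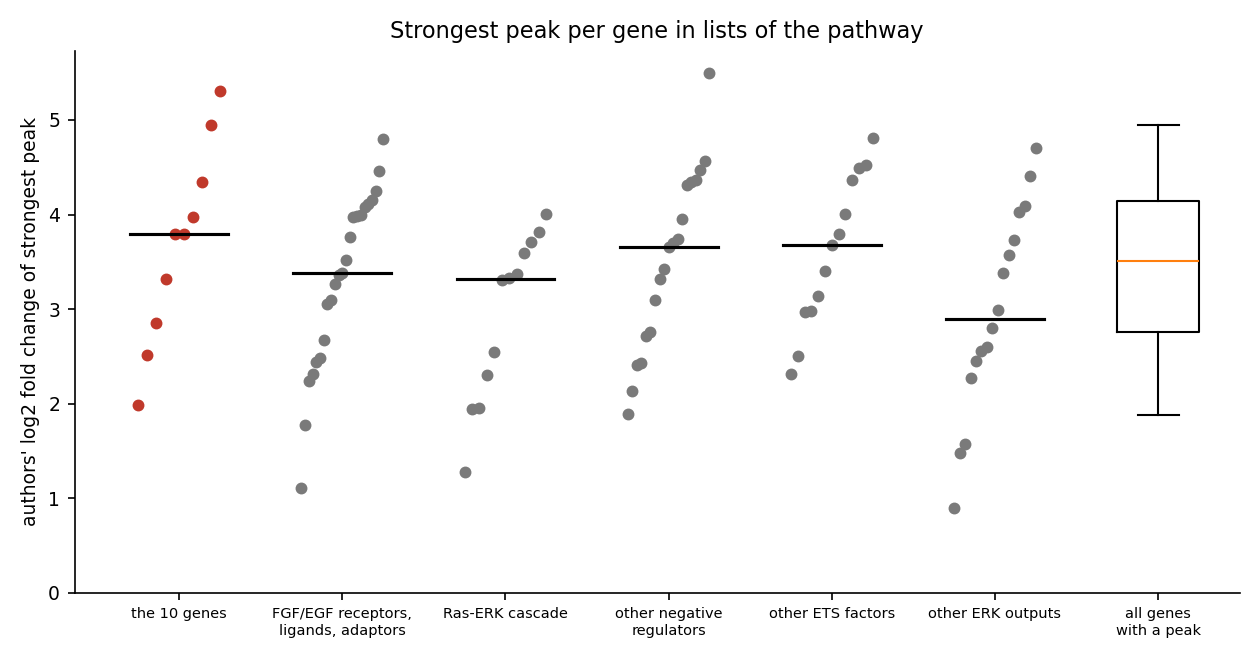
Log2 fold change of the strongest peak per gene by the authors' deposited table, for the 10 genes (red), for the genes with a peak in 5 pathway lists (grey, sorted low to high, black lines at the median) and for all genes with a peak (box from 25 to 75 percentile with the median, whiskers from 5 to 95 percentile). The 10 genes lie between 1.99 and 5.31, within the span of values seen in the lists.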

How the data were processed

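The members and gene lists were chosen with earlier results of these data known. Tools named per the submitters' processing notes are STAR 2.5.2a, Trimmomatic 0.32 and bcl2fastq 2.17.1.14, with the builds GRCm38.p6 and GRCh38.p13. The sources used here name no peak caller. Each deposited count is the number of reads in a peak, in 1 IP and 1 input column that name no library, per the file headers, and whether each is a sum or a rounded mean over libraries is unknown. Which libraries and which genotype entered each column is also unknown. The deposited log2 fold changes and p-values of IP over input are the authors' own, and the sources used here do not state their normalization. The score the authors deposited was the adjusted p-value on a negative log2 scale for all 21195 peaks (tolerance 1e-06), and the peak list held the same peaks as the table.

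Peaks were assigned by position to RefSeq spans (GRCm38.p6) with Python 3.11.15 and pandas 2.3.3, as checked on planted intervals, and gene identifiers were not used for naming. Peak starts were made 1-based. Read ratios have Clopper-Pearson 95% intervals (scipy 1.17.1), which take the numbers as reads counted once, cover counting error only and treat PCR copies as independent. All 10 genes are described, and in each pathway list the 3 genes with the highest log2 fold change are named, plus the listed relatives of the 10 genes, except that some genes of the Ras-ERK cascade are not reported here. No gene was named as alike in pattern, because each peak has 1 value per column. Other overlaps, strands, depth filters and summaries per gene were tried.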

Additional observations from a re-analysis of the deposited data

How the results depend on the processing

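No paired analysis was possible because the columns carry no library or replicate, and no replicate could be left out for the same reason. All 10 genes kept a peak with any overlap, with 50% of the peak inside the gene, on both strands, and with at least 50 input reads and an adjusted p under 0.001. If a peak had to exceed the median log2 fold change of all peaks, 7 of the 10 genes and 11 of the 21 peaks were left, and pathway genes with a peak numbered 53, against 84 with all peaks. With a gene's peaks averaged, the median log2 fold change of the 10 genes was 2.67 and the median read ratio 2.84, against 3.79 and 4.12. The median log2 ratio of reads was 2.04. Without the Dusp6 peaks that overlap the antisense gene, an alternative chosen after seeing the data, the median log2 fold change was 3.55, the median read ratio was 3.75, and the strongest Dusp6 peak had 3.15. Of 90 values recomputed under 10 alternatives, 82 stayed within the limits set for them (1.5 times for a count) and 8 moved. Many of the 90 could not move, such as the strongest peaks of the other genes once Dusp6 peaks were left out. The count of 82 is therefore no measure of how stable the results are. Peaks of Il17rd and Spred1 have few reads, so their ratios are the least precise.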

Other observations

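The difference between the log2 fold change by the authors' deposited table and the log2 ratio of the reads had a sharp upper edge. Over all peaks it reached 2.99 and no higher. The second Etv1 peak, the last Spry1 peak and the last Dusp6 peak lie at this edge. The last peaks of Spry1 and Dusp6 each end 7 bases before the annotated gene end, and 1640 gene and peak assignments (8.43%) end within 10 bases of it. The median difference was 1.81 in those and 1.88 in the others. The cause of the edge was not tested.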
